A study of Mus musculus with 35 samples.

Results

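The genes described here are 8 CXC chemokine genes, Cxcl1, Cxcl2, Cxcl3, Cxcl5, Cxcl9, Cxcl10, Cxcl11 and Cxcl16. They were taken by symbol, and each symbol matched 1 of the 47069 gene identifiers of the deposited files. Expression was measured by RNA sequencing in cultured bone marrow-derived macrophages of C57BL/6 mice, grown from total bone marrow in a medium with L929 conditioned medium. Cells were wild-type (WT) or labelled AMPKa1-/-, and each genotype received 6 treatments for 24 h: vehicle (DMSO), the glucocorticoid dexamethasone (Dex, 100 nM), lipopolysaccharide (LPS, 100 ng/ml), DAMPs (1 µg/ml), or either stimulus together with Dex (LPS + Dex and DAMPs + Dex). The labels do not give the composition of the DAMPs. There were 35 libraries, 3 in each of 11 groups and 2 with WT LPS, of which replicate 1 was not analysed here. Levels are FPKM, in which fragments are divided by gene length and by library depth, so that genes of different length can be compared. Library totals ranged from 15837203 to 31955298 fragments, so that each fragment added 0.0313 to 0.0631 FPKM to a gene with a length of 1 kb.

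Chemokines of this family are small secreted proteins that guide leukocytes along a gradient. Cxcl1, Cxcl2, Cxcl3 and Cxcl5 attract neutrophils through the receptor CXCR2 and are known as targets of NF-kB, the transcription factor that LPS activates through its receptor TLR4. Cxcl9, Cxcl10 and Cxcl11 attract activated T cells and natural killer cells through CXCR3 and are induced by interferons. Cxcl16 encodes a chemokine tethered to the membrane, which binds CXCR6 on T cells, also takes up oxidized lipoprotein, and is released by ADAM proteases. Glucocorticoids such as Dex act through the glucocorticoid receptor and are known to repress inflammatory genes in macrophages.

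The label of the genotype was checked first with Prkaa1, the gene of AMPKα1. Prkaa1 was at 15.9, 11.8 and 15.3 FPKM in the 3 WT vehicle libraries and at 14.8, 16.5 and 15.4 FPKM in those labelled AMPKa1-/-. It was not lower in the libraries labelled AMPKa1-/- in any treatment by the test (limma adjusted p between 0.35 and 1), and Prkaa2, the other catalytic subunit, was at or below 0.13 FPKM in every library. A value over the whole gene need not fall when only some exons are deleted, and the sources do not say which exons were removed, so the libraries are called labelled AMPKa1-/- throughout.

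In the mouse genome (GRCm38, GENCODE M21), 7 of the 8 genes lie in 2 clusters on chromosome 5 and the other on chromosome 11. Cxcl5, Cxcl3, Cxcl1 and Cxcl2 lie within 147 kb (chr5:90759360-90905938, plus strand), and Cxcl9, Cxcl10 and Cxcl11 within 44.1 kb (chr5:92321347-92365485, minus strand). Cxcl16 is at chr11:70453983-70459984 on the minus strand. The annotation lists Cxcl11 as a polymorphic pseudogene, and C57BL/6 mice are known to make no full-length CXCL11 protein, so its values are those of a transcript. The promoters of 5 of the 8 members were in the RefSeq table for GRCm38.p6. The 250 bases before each start are shown because these genes include the 3 members highest with LPS. Capitals mark matches to the motifs searched on both strands.

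Cxcl1 (chr5:90890995-90891244, plus strand): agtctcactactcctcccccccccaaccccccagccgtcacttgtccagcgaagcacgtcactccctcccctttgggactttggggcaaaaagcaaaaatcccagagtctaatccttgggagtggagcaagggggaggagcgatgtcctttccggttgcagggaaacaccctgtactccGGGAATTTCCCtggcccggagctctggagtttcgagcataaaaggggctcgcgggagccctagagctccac
Cxcl2 (chr5:90903649-90903898, plus strand): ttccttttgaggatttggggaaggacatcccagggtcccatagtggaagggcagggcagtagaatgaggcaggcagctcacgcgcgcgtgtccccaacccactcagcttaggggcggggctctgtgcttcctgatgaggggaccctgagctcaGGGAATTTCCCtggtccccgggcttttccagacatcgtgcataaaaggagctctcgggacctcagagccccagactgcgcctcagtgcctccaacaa
Cxcl3 (chr5:90785851-90786100, plus strand): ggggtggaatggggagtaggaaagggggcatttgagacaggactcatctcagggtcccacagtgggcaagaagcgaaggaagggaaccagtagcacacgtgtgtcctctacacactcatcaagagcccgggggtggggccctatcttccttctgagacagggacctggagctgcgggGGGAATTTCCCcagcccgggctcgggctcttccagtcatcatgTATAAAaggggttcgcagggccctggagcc
Cxcl9 (chr5:92328080-92328329, minus strand): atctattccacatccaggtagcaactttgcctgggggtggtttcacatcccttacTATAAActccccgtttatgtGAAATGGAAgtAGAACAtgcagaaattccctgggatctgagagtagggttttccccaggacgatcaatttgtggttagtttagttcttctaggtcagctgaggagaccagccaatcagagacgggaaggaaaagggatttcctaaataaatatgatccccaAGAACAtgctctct
Cxcl10 (chr5:92348890-92349139, minus strand): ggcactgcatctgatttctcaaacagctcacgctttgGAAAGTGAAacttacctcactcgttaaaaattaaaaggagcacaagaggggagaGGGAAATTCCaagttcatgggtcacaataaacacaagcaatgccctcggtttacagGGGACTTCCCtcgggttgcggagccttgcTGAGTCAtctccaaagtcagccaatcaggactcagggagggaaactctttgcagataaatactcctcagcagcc

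The NF-kB consensus, a motif of 10 letters, was found in 4.51% of all 32851 promoter windows of 300 bases. It was matched on both strands at overlapping places in Cxcl1 (from -71 to -61 relative to the start), Cxcl2 (-97 to -87) and Cxcl3 (-73 to -63), and at 2 separate places in Cxcl10. The core of the interferon-stimulated response element, GAAANNGAA, present in 8.56% of windows, was matched in Cxcl9 (-175 to -167) and Cxcl10 (-213 to -205). The AP-1 site TGANTCA (7.81% of windows) was matched in Cxcl10, and in Cxcl9 after the start, beyond the bases printed. The hexamer TGTTCT of glucocorticoid response elements (19.0% of windows) was matched at 2 places in Cxcl9, both on the opposite strand. The letters TATAAA of the TATA box (13.6% of windows) were matched in Cxcl3 (-30 to -25) and, farther from the start, in Cxcl9 (-195 to -190). A match describes letters and is not evidence of binding.

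Without a stimulus, Cxcl16 was the only member at a high level. In WT vehicle libraries its mean was 74.7 FPKM, 93.2% of the summed level of the 8 members, ahead of Cxcl2 with a mean of 2.41 FPKM. Cxcl1 and Cxcl10 were near 1 FPKM, and Cxcl3, Cxcl5, Cxcl9 and Cxcl11 below 0.4 FPKM in each of the 3 libraries. With LPS the order changed. The summed level rose to 3901 and 3367 FPKM in the 2 WT LPS libraries from 82.2, 89.95 and 68.4 FPKM with vehicle. By the group means Cxcl10 (29.1% of the sum), Cxcl2 (27.0%) and Cxcl3 (23.9%) led it, with Cxcl16 at 7.18%. The 2 libraries differed in this, with Cxcl2 the highest member in replicate 2 and Cxcl10 in replicate 3. In the libraries labelled AMPKa1-/- the sum with LPS was 3342, 2208 and 7565 FPKM, led by Cxcl2 (42.7%), Cxcl3 (23.9%) and Cxcl10 (14.1%). All 8 members passed the filter for the test, a mean of at least 1 FPKM over all libraries, but Cxcl3, Cxcl5, Cxcl9 and Cxcl11 passed it only through the 5 libraries given LPS alone, so a count over the members tested is partly set by that filter.

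**Figure D1:**
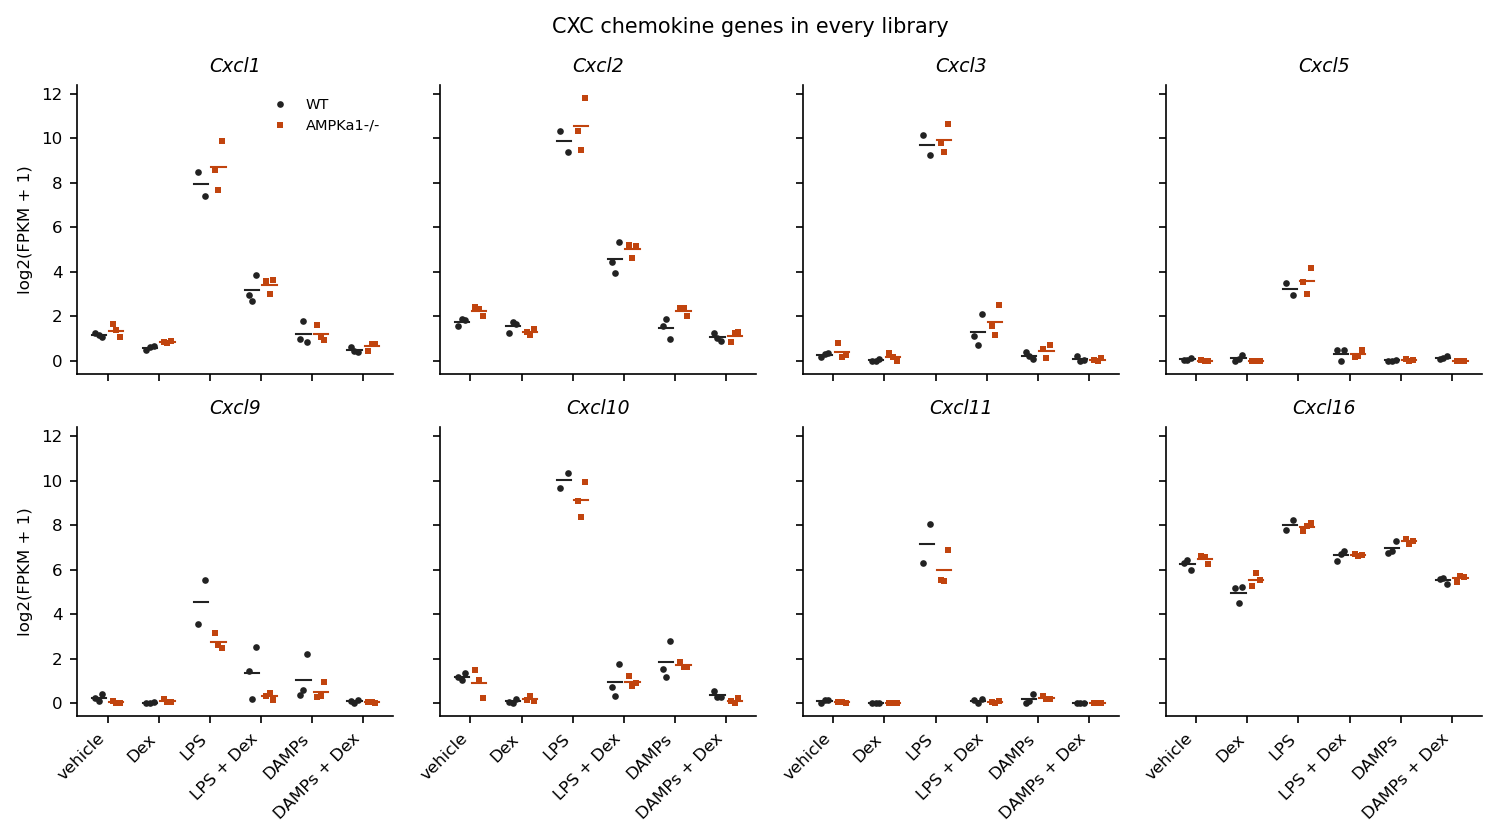
Level of each member as log2(FPKM + 1) (y axis) in the 6 treatments (x axis), 1 panel per gene. Each point is a library, circles WT and squares labelled AMPKa1-/-, and each bar is the group mean over 2 or 3 libraries. All 5 libraries given LPS alone lie above every other library of their own genotype for all 8 members.

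LPS against vehicle asked which members the stimulus induced. All 8 members were higher with LPS in both genotypes, where 19.9% of the 11354 genes tested were higher in WT and 20.2% in the libraries labelled AMPKa1-/-. The median difference of the members was 6.93 in WT and 6.65 in the labelled AMPKa1-/- libraries on the log2(FPKM + 1) scale, against -0.19 and -0.30 for all genes tested. Because the median of all genes moved by that much, the counts were repeated with each library centred on its median, and all 8 members were called again in both genotypes. In bulk RNA, fewer cells of a type and less RNA per cell cannot be told apart, which holds for every difference given here.

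Among the neutrophil attractants, Cxcl2 reached the highest level. It was at 1291 and 668 FPKM in the 2 WT LPS libraries and at 1.96, 2.72 and 2.54 FPKM with vehicle, a 407-fold difference of means. In the libraries labelled AMPKa1-/- it was at 1274, 704 and 3625 FPKM with LPS and at 4.40, 4.02 and 3.04 FPKM with vehicle. Both LPS groups lay far above their vehicle groups, and replicate 3 of the labelled AMPKa1-/- LPS group stood apart from the others of its group. The fitted difference was 8.10 ± 0.42 (SE) in WT (limma adjusted p = 2.3e-15) and 8.28 ± 0.37 in the labelled AMPKa1-/- libraries.

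Cxcl1 followed the same order at a lower level. It was at 360 and 167 FPKM in WT LPS libraries and at 1.35, 1.22 and 1.099 FPKM with vehicle. With LPS the libraries labelled AMPKa1-/- held 385, 203 and 944 FPKM, and with vehicle 2.11, 1.59 and 1.08 FPKM. The groups did not overlap, and the difference was 6.80 ± 0.40 in WT and 7.36 ± 0.36 in the labelled AMPKa1-/- libraries (SE).

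Cxcl3 had the largest difference of the 8 members on this scale. It went from 0.121, 0.237 and 0.288 FPKM with vehicle, 5 to 13 fragments a library, to 1117 and 616 FPKM with LPS in WT. In the libraries labelled AMPKa1-/- it was at 873, 672 and 1595 FPKM with LPS and at 0.756, 0.145 and 0.189 FPKM with vehicle. Cxcl3 was thus below 1 FPKM in every vehicle library and among the 3 highest members with LPS. The difference was 9.42 ± 0.35 in WT and 9.52 ± 0.31 in the labelled AMPKa1-/- libraries (SE).

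Cxcl5, the remaining ligand of CXCR2 in the group, stayed low even with LPS. It was at 10.45 and 6.67 FPKM in WT LPS libraries and at 10.7, 7.12 and 17.05 FPKM in those labelled AMPKa1-/-. With vehicle Cxcl5 had at most 3 fragments in any library, so no fold is given. The fitted difference was 3.16 ± 0.21 and 3.57 ± 0.19 (SE), and of the 4 neutrophil attractants Cxcl5 was the lowest in both LPS groups.

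Among the interferon-induced members, Cxcl10 was the most abundant. It was at 813 and 1302 FPKM in WT LPS libraries and at 1.26, 1.04 and 1.60 FPKM with vehicle, an 814-fold difference of means. With LPS the libraries labelled AMPKa1-/- held 536, 324 and 994 FPKM, and with vehicle 1.77, 1.09 and 0.189 FPKM. The vehicle libraries of the latter group spread widely while LPS lay far above them, and the difference was 8.81 ± 0.41 in WT and 8.20 ± 0.36 in the labelled AMPKa1-/- libraries (SE).

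Cxcl11 and Cxcl9 were induced to lower levels. Cxcl11 was at 77.1 and 261 FPKM in WT LPS libraries and at 46.0, 43.9 and 115.5 FPKM in those labelled AMPKa1-/-, from at most 6 fragments in any vehicle library. Cxcl9 was at 10.7 and 44.9 FPKM in WT LPS libraries and at 7.79, 5.12 and 4.60 FPKM in those labelled AMPKa1-/-. With vehicle Cxcl9 was at 0.167, 0.0730 and 0.338 FPKM in WT and at 0.0785, 0 and 0 FPKM in the libraries labelled AMPKa1-/-. The difference was 4.29 ± 0.48 in WT and 2.71 ± 0.43 in the labelled AMPKa1-/- libraries for Cxcl9, and 7.06 ± 0.31 and 5.93 ± 0.28 for Cxcl11 (SE). The exons of Cxcl11 share 1582 bases with a pseudogene on the opposite strand that was listed at 0 FPKM.

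The 2 WT LPS libraries ranked the members differently. Replicate 2 was the higher for Cxcl1, Cxcl2, Cxcl3 and Cxcl5, by 1.57 to 2.15 times. Replicate 3 was the higher for Cxcl9, Cxcl10, Cxcl11 and Cxcl16, by 1.36 to 4.19 times. Summed over the 4 neutrophil attractants the libraries held 2779 and 1459 FPKM, and summed over the 3 interferon-induced members 900.5 and 1607 FPKM. In the LPS group labelled AMPKa1-/-, replicate 3 was the highest of 3 for every member except Cxcl9, of which it had the least.

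LPS + Dex against LPS asked what the glucocorticoid did to the induced genes. All 8 members were lower with Dex in both genotypes, where 17.5% of genes tested were lower in WT and 18.4% in the libraries labelled AMPKa1-/-. The median difference of the members was -5.04 and -5.42, against -0.03 and 0.01 for all genes. Comparisons within a genotype share libraries, vehicle or LPS, and are not independent of each other. The members did not fall to the same share of their LPS level, and they are described in that order below.

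Cxcl11 kept the least by the means, 0.0511% in WT and 0.0514% in the labelled AMPKa1-/- libraries, from at most 9 fragments a library. Cxcl10 and Cxcl3 came next. Cxcl10 was at 0.650, 0.260 and 2.40 FPKM in WT LPS + Dex libraries, 0.104% of its mean with LPS, and at 1.32, 0.694 and 0.863 FPKM in those labelled AMPKa1-/-, 0.155%. Cxcl3 was at 1.15, 0.626 and 3.27 FPKM in WT and at 1.93, 1.25 and 4.61 FPKM in the labelled AMPKa1-/- libraries, 0.194% and 0.248% of the level with LPS. These values lay wholly below the LPS groups, by -9.07 ± 0.41 and -8.17 ± 0.36 for Cxcl10 and by -8.40 ± 0.35 and -8.20 ± 0.31 for Cxcl3 (SE). Cxcl11 returned to 1 to 9 fragments a library in WT and 0 to 3 in the libraries labelled AMPKa1-/-, that is, to 0.0202 to 0.146 FPKM and 0 to 0.0604 FPKM. Without LPS + Dex replicate 3 the shares kept were 0.043% for Cxcl10 in WT, and 0.102% in WT and 0.152% in the labelled AMPKa1-/- libraries for Cxcl3. For Cxcl11 they were 0.0333% and 0.0329%. Its WT share was 0.0331% without LPS replicate 2 and 0.112% without LPS replicate 3. In the labelled AMPKa1-/- libraries it was 0.077% without LPS + Dex replicate 2 and 0.0782% without LPS replicate 3.

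Cxcl1 and Cxcl2 kept more. Cxcl2 was at 20.7, 14.3 and 38.9 FPKM in WT LPS + Dex libraries, 2.51% of its mean with LPS, and at 36.0, 23.7 and 35.1 FPKM in those labelled AMPKa1-/-, 1.69%. Cxcl1 was at 6.76, 5.54 and 13.5 FPKM in WT and at 11.1, 7.01 and 11.2 FPKM in the labelled AMPKa1-/- libraries, 3.26% and 1.91%. The differences from LPS were -5.30 ± 0.42 and -5.53 ± 0.37 for Cxcl2 and -4.77 ± 0.40 and -5.31 ± 0.36 for Cxcl1 (SE). Cxcl5, at 0 to 20 fragments a library, kept 3.19% and 1.96% (1.18% without the labelled AMPKa1-/- LPS + Dex replicate 3). The shares of Cxcl1 and Cxcl2 in the libraries labelled AMPKa1-/- were 3.32% and 3.2% without LPS replicate 3, and that of Cxcl1 in WT 5.13% without LPS replicate 2.

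Cxcl9 spread widely between the WT replicates of this treatment. It was at 1.72, 0.133 and 4.68 FPKM in WT LPS + Dex libraries, a 35.1-fold range, and at 0.247, 0.367 and 0.0997 FPKM in those labelled AMPKa1-/-. Both groups lay below their LPS groups, by -3.16 ± 0.48 and -2.44 ± 0.43 (SE). By the means Cxcl9 kept 7.84% in WT and 4.08% in the labelled AMPKa1-/- libraries. The WT share was 3.34% without LPS + Dex replicate 3, 4.86% without LPS replicate 2 and 20.3% without LPS replicate 3. WT LPS + Dex replicate 3 was the highest of its group for 7 of the 8 members, all but Cxcl5, and WT LPS + Dex replicate 2 the lowest for 7, all but Cxcl16.

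**Figure D2:**
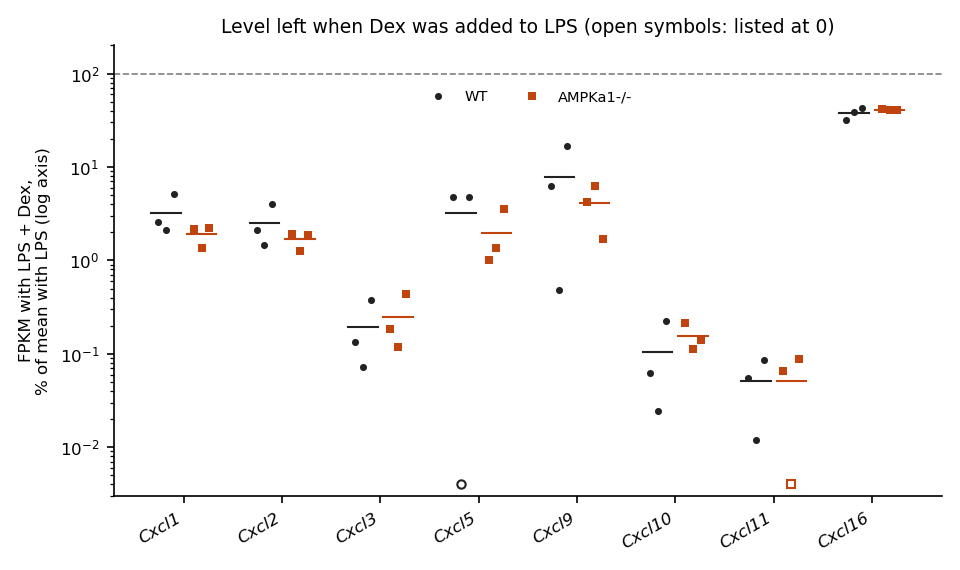
FPKM of each member with LPS + Dex as a percentage of the mean FPKM with LPS in the same genotype (y axis, log scale), for the 8 members (x axis). Points are LPS + Dex libraries, circles WT and squares labelled AMPKa1-/-, bars are means of 3 libraries, open symbols mark libraries listed at 0 and the dashed line is the LPS mean. Cxcl16 kept 38.1% and 41.2%, Cxcl1 and Cxcl2 between 1.69% and 3.26%, and Cxcl10, Cxcl3 and Cxcl11 below 0.25%, by the means over all libraries.

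LPS + Dex against vehicle asked how far the members returned to the level without a stimulus. Cxcl1, Cxcl2, Cxcl3 and Cxcl9 were still higher than vehicle in WT (4 of 8, against 17.2% of genes tested), and Cxcl1, Cxcl2 and Cxcl3 in the libraries labelled AMPKa1-/- (3 of 8, against 16.7%). For Cxcl2 the mean was 10.2 times that with vehicle in WT and 8.28 times in the labelled AMPKa1-/- libraries, and for Cxcl1 7.02 and 6.14 times. Cxcl10 was at 0.85 and 0.945 times its vehicle mean and passed the test in neither genotype (limma adjusted p = 0.58 and 0.951). These ratios rested on single libraries, at 0.35 without WT LPS + Dex replicate 3 and 1.5 without the labelled AMPKa1-/- vehicle replicate 1. The fitted WT difference of -0.25 turned to 0.05 without LPS + Dex replicate 2 and 0.10 with quantile normalization, and that of 0.03 in the other genotype to -0.31 without vehicle replicate 3 and -0.10 without LPS + Dex replicate 1. The call of Cxcl9 in WT (1.13 ± 0.43, SE, limma adjusted p = 0.0292) came from groups that overlapped, and it was lost without LPS + Dex replicate 3 (0.56), LPS + Dex replicate 1 (1.096), vehicle replicate 1 (1.12) or vehicle replicate 2 (1.06). It was also lost, at the same 1.13, without a filter and in fits to the compared groups or to WT alone, and with limma-voom on fragments (2.71). Cxcl5 in the libraries labelled AMPKa1-/-, at 0.28, did not pass (limma adjusted p = 0.206) and was called with median centring (0.565), a pseudocount of 0.1 (1.51) or limma-voom (3.36). Cxcl3 in WT, called at 1.02 ± 0.31, was lost without LPS + Dex replicate 3 (0.62). Cxcl16 in WT was higher than vehicle by 0.41 ± 0.18 and did not pass (SE, limma adjusted p = 0.0572). It passed with median centring (0.63) and quantile normalization (0.47), without LPS + Dex replicate 1 (0.53) or vehicle replicate 2 (0.50), and, at the same 0.41, without WT Dex replicate 2, WT DAMPs replicate 3 or the labelled AMPKa1-/- Dex replicate 2.

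Cxcl16 behaved differently from the other members in size. It was at 77.3, 84.5 and 62.3 FPKM in WT vehicle libraries and at 221 and 301 FPKM with LPS, 3.49 times the vehicle mean, and in the libraries labelled AMPKa1-/- at 95.6, 92.8 and 74.3 FPKM and at 210, 248 and 270 FPKM, 2.77 times the vehicle mean. With LPS + Dex it was at 83.5, 102 and 112 FPKM in WT, 38.1% of the LPS mean, and at 102, 98.2 and 100 FPKM in the labelled AMPKa1-/- libraries, 41.2%. The differences were 1.79 ± 0.20 and 1.46 ± 0.18 for LPS, and -1.38 ± 0.20 and -1.26 ± 0.18 for adding Dex to LPS (SE), with no overlap of groups in either genotype.

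Cxcl16 was also called with DAMPs, with Dex and with DAMPs + Dex, in both genotypes. With DAMPs it was at 105, 113 and 155 FPKM in WT and at 167, 141 and 153 FPKM in the labelled AMPKa1-/- libraries. With Dex it was at 34.9, 21.8 and 36.6 FPKM in WT and at 37.9, 56.5 and 45.03 FPKM in the labelled AMPKa1-/- libraries. With DAMPs + Dex it was at 47.0, 48.9 and 39.4 FPKM in WT and at 42.8, 51.9 and 49.2 FPKM in the labelled AMPKa1-/- libraries. The groups with Dex, with or without DAMPs, lay wholly below vehicle, and those with DAMPs wholly above it, in each genotype. The 12 groups ranked from LPS through DAMPs, LPS + Dex, vehicle and DAMPs + Dex to Dex in each genotype, and the 2 genotypes were neighbours at each step except with DAMPs + Dex and Dex. Of the 11 pairs of neighbours in that order, 7 overlapped and 4 did not. Within a genotype the latter were labelled AMPKa1-/- LPS and DAMPs, and WT DAMPs + Dex and Dex. Across genotypes they were WT DAMPs and labelled AMPKa1-/- LPS + Dex, and WT vehicle and labelled AMPKa1-/- DAMPs + Dex. Within WT the DAMPs and LPS + Dex libraries overlapped, at 105 to 155 FPKM and 83.5 to 112 FPKM.

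The exons of Cxcl16 share 552 bases with Zmynd15 on the opposite strand, and the sources used here do not state that strand was used in counting, so reads of the 2 genes cannot be told apart there. Zmynd15 was at 9.89, 6.59 and 6.98 FPKM in WT vehicle libraries and at 40.1 and 35.4 FPKM with LPS, a rise of 2.15 ± 0.22 (SE), and fell with LPS + Dex by 1.66 on the log2(FPKM + 1) scale. It stood at a mean of 12.9 FPKM over all libraries, well under that of Cxcl16.

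**Figure D3:**
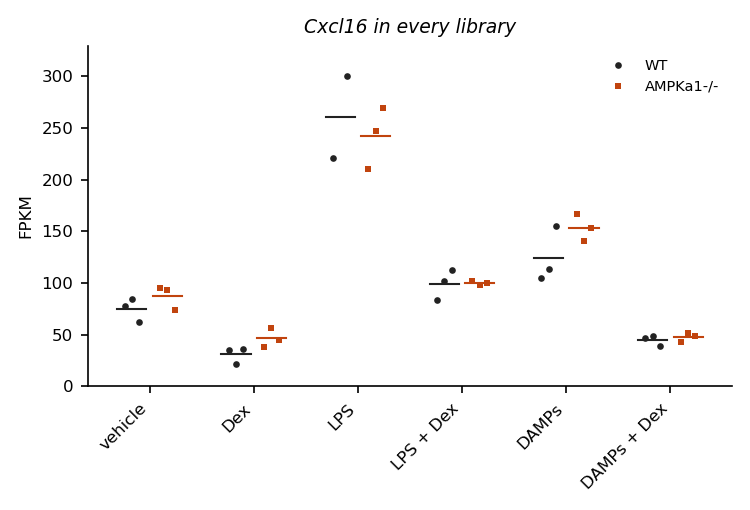
Cxcl16 in FPKM on a linear scale (y axis) in the 6 treatments (x axis). Points are libraries, circles WT and squares labelled AMPKa1-/-, and bars are group means. The LPS groups, at 210 to 301 FPKM, lie above all others, and the groups with Dex or DAMPs + Dex, at 21.8 to 56.5 FPKM, below vehicle.

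DAMPs against vehicle asked whether the other stimulus induced the same genes. Cxcl16 was the only member called, higher by 0.72 ± 0.18 in WT (SE, limma adjusted p = 0.0318, 1.22% of genes tested higher) and by 0.81 ± 0.18 in the libraries labelled AMPKa1-/- (limma adjusted p = 0.00637, 1.89% higher). The WT call was lost without WT DAMPs replicate 3 (0.55), WT vehicle replicate 1 (0.75) or WT vehicle replicate 3 (0.60), with median centring (0.73) and, at the same 0.72, without a filter or in fits to the compared groups or to WT alone, and that of the other genotype without its vehicle replicate 3 (0.70). The 4 neutrophil attractants stayed near vehicle. Cxcl2 was at 1.97, 2.68 and 1.006 FPKM in WT DAMPs libraries and at 4.20, 4.19 and 3.03 FPKM in those labelled AMPKa1-/-, overlapping vehicle in both. The interval of its difference from vehicle reached from -1.04 to 0.49 in WT.

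Of the interferon-induced members, 1 WT DAMPs library stood apart. Cxcl9 was at 0.293, 0.507 and 3.63 FPKM, Cxcl10 at 1.90, 1.23 and 5.97 FPKM and Cxcl11 at 0.0178, 0.0819 and 0.3435 FPKM in WT DAMPs replicates 1, 2 and 3. Replicate 3 also held the most Irf7, an interferon-induced transcription factor, at 1586 FPKM against 478 and 368 FPKM. In the libraries labelled AMPKa1-/- Cxcl10 was at 2.61, 2.10 and 2.08 FPKM with DAMPs, above its 3 vehicle libraries, and the difference of 0.78 ± 0.37 did not pass the adjusted test (SE, limma adjusted p = 0.353). LPS against DAMPs gave 8 of 8 members higher with LPS in both genotypes, where 20.7% and 22.0% of genes tested were higher, and the smallest difference was that of Cxcl16, 1.07 ± 0.20 in WT and 0.65 ± 0.18 in the labelled AMPKa1-/- libraries (SE).

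Dex against vehicle asked what the glucocorticoid did without a stimulus. In WT, Cxcl10 and Cxcl16 were lower (2 of 8, against 14.9% of genes tested), and in the libraries labelled AMPKa1-/- Cxcl16 (1 of 8, against 16.0%, but 3 with a pseudocount of 0.1 and 2 in the fit to the compared groups). Cxcl10 was at 0.04998, 0 and 0.127 FPKM in WT Dex libraries, all below vehicle, and the difference was -1.11 ± 0.36 (SE, limma adjusted p = 0.0215). That call was lost without WT Dex replicate 1 (-1.11), WT Dex replicate 2 (-1.07) or WT vehicle replicate 3 (-1.02), with quantile normalization (-0.93) and, at the same -1.11, without a filter. Cxcl16 fell by 1.26 in WT and by 0.91 in the labelled AMPKa1-/- libraries on the log2(FPKM + 1) scale. Cxcl1 was at 0.400, 0.535 and 0.5996 FPKM in WT Dex libraries and at 0.786, 0.768 and 0.833 FPKM in those labelled AMPKa1-/-, below every vehicle library of the same genotype, and did not pass the test in either (limma adjusted p = 0.245 and 0.317). In the libraries labelled AMPKa1-/- Cxcl2 was at 1.45, 1.25 and 1.66 FPKM with Dex, all below vehicle, with a difference of -0.97 ± 0.37 (SE, limma adjusted p = 0.0539). It passed, at the same value, when 1 of 6 LPS or LPS + Dex libraries was left out (WT LPS replicate 2 or 3, WT LPS + Dex replicate 2 or 3, or the labelled AMPKa1-/- LPS replicate 2 or 3). Cxcl10 in that genotype, at -0.73, passed without vehicle replicate 3 (-1.06). Cxcl5 was listed at 0 in all 6 libraries labelled AMPKa1-/- with Dex or DAMPs + Dex, and in WT at 0 to 0.2155 FPKM in the same treatments.

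DAMPs + Dex against DAMPs gave lower levels of Cxcl10 and Cxcl16 in WT (2 of 8, against 12.6% of genes tested, but 4 with a pseudocount of 0.1) and of Cxcl2, Cxcl10 and Cxcl16 in the libraries labelled AMPKa1-/- (3 of 8, against 12.2%, but 5 with a pseudocount of 0.1). Cxcl10 was at 0.449, 0.201 and 0.224 FPKM in WT DAMPs + Dex libraries and at 0.0657, 0 and 0.188 FPKM in those labelled AMPKa1-/-, below every DAMPs library. The difference was -1.47 ± 0.37 in WT and -1.59 ± 0.37 in the labelled AMPKa1-/- libraries (SE). Without WT DAMPs replicate 3 the WT value was -0.98 and not called. Cxcl9 in WT, at -0.98 ± 0.43 (SE, limma adjusted p = 0.105), was called without WT DAMPs replicate 1 (-1.32), with a pseudocount of 0.1 (-2.66) and, at the same -0.98, with a replicate block. Cxcl16 fell by 1.43 and by 1.66 on the same scale. Against vehicle, DAMPs + Dex left Cxcl16 lower in WT (1 of 8, against 13.9%, but 4 in the fit to the compared groups and 3 with a pseudocount of 0.1) and Cxcl2 and Cxcl16 lower in the libraries labelled AMPKa1-/- (2 of 8, against 14.9%, but 4 with a pseudocount of 0.1). The members added in WT were Cxcl1 (-0.67) and Cxcl10 (-0.83) in both alternatives, at -1.43 and -1.87 with the pseudocount of 0.1, and Cxcl2 (-0.695) in the fit to the compared groups. Cxcl2 there was at 0.789, 1.40 and 1.43 FPKM, below both DAMPs and vehicle, and its 2 calls were lost without DAMPs + Dex replicate 1 (-0.98 against DAMPs and -0.99 against vehicle), and 1 each without a library of the compared group (-1.07 without DAMPs replicate 1 or 2, -1.04 and -1.096 without vehicle replicate 1 or 2). Both were also lost without a filter at the same -1.13, and with limma-voom at -1.71 and -1.74. Cxcl10 in that genotype, at -0.81 against vehicle, was called without vehicle replicate 3 (-1.15).

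The genotypes were compared within each treatment. With limma none of the 8 members was called with vehicle, LPS, LPS + Dex, DAMPs or DAMPs + Dex, where 0.432%, 0.766%, 0.669%, 0.731% and 1.06% of genes tested were called in either direction. At an unadjusted p under 0.05 these 5 comparisons held 0, 3, 1, 1 and 0 members, and 700, 1300, 921, 860 and 1067 of all genes, and limma-voom on fragments called 0 in each. The member with LPS + Dex was Cxcl9, at -1.08 (95% interval -1.96 to -0.19, limma adjusted p = 0.425) from overlapping groups, and -0.51 without WT LPS + Dex replicate 3 or -1.67 without WT LPS + Dex replicate 2. The member with DAMPs was Cxcl2, whose 3 libraries labelled AMPKa1-/- lay above the 3 WT libraries given above (0.77 ± 0.37, SE, limma adjusted p = 0.653). With Dex, 26.5% of genes were called (3008 genes, but 305 without WT Dex replicate 2, 308 without the labelled AMPKa1-/- Dex replicate 2, 1673 without WT Dex replicate 1 and 1435 without a filter) and 1 member, Cxcl16, higher in the libraries labelled AMPKa1-/- by 0.58 ± 0.18 (SE, limma adjusted p = 0.0235). That call was lost without WT Dex replicate 2 (0.35), which had the lowest Cxcl16 of all libraries, or without the labelled AMPKa1-/- Dex replicate 2 (0.43), and, at the same 0.58, without a filter or in the fit to the compared groups.

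With LPS the members with the lowest unadjusted p between genotypes were the interferon-induced ones. Cxcl9, at the values given above, did not overlap between the 2 WT and the 3 labelled AMPKa1-/- LPS libraries, and its difference was -1.79 (95% interval -2.78 to -0.80), with an unadjusted limma p of 0.00097 and an adjusted p of 0.0928. Cxcl11 differed by -1.19 (-1.83 to -0.56, limma adjusted p = 0.072) and Cxcl10 by -0.88 (-1.72 to -0.05, limma adjusted p = 0.408), each with overlapping groups. These values rested on single libraries. Without WT LPS replicate 3 they were -0.805, -0.32 and -0.54. Without WT LPS replicate 2 the differences of Cxcl9 and Cxcl11 were -2.78 and -2.06. Either omission leaves a single WT LPS library, so no call is given for these values. Without the labelled AMPKa1-/- LPS replicate 3 the difference of Cxcl11 was -1.64 and called. Cxcl9 was called, at the same -1.79, when WT LPS + Dex replicate 2, WT LPS + Dex replicate 3 or WT DAMPs replicate 3 was left out. The 4 neutrophil attractants lay the other way, with differences from 0.24 for Cxcl3 to 0.77 for Cxcl1, and all 4 intervals included 0. Cxcl3 turned to -0.12 without the labelled AMPKa1-/- LPS replicate 3, where the others were 0.03 to 0.19, and to -0.19 without WT LPS replicate 3, where they were 0.07 to 0.22.

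Whether the genotypes responded differently was tested directly as a difference of differences. By limma 0 members and 0% of all genes passed for LPS, for DAMPs, for adding Dex to LPS and for adding Dex to DAMPs, and limma-voom also called 0 of each. At an unadjusted p under 0.05 the 4 tests held 2, 0, 1 and 0 members, and 514, 66, 311 and 234 of all genes. For LPS the members were Cxcl9 (-1.58, 95% interval -2.91 to -0.25) and Cxcl11 (-1.13, -1.98 to -0.28), and for adding Dex to LPS Cxcl11 (1.12, 0.27 to 1.98). Without WT LPS replicate 2, the values of Cxcl11 were -2.00 and 1.995, and without WT LPS replicate 3 the 3 values were -0.59, -0.26 and 0.25. Each of these fits leaves a single WT LPS library, so no call is given. With limma-voom on fragments of all libraries the sign of each of the 3 values turned, to 0.77 and 0.095 for LPS and -0.04 for adding Dex. For Cxcl2 the interval of the difference in the LPS response, -0.97 to 1.33, leaves room for a change of more than 1 log2 unit.

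**Figure D4:**
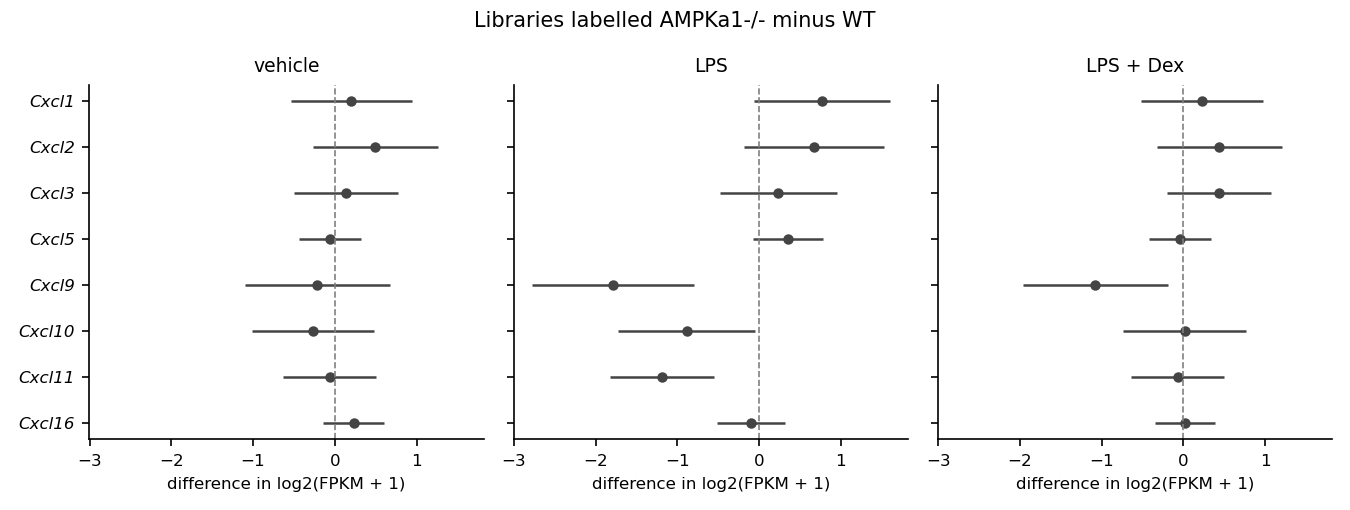
Difference of libraries labelled AMPKa1-/- minus WT in log2(FPKM + 1) (x axis) for each member (y axis), with vehicle, LPS and LPS + Dex. Points are fitted differences and lines 95% intervals from limma, over 3 libraries a group and 2 for WT LPS. With LPS, Cxcl9 (-1.79), Cxcl11 (-1.19) and Cxcl10 (-0.88) lie below 0 and the 4 neutrophil attractants at 0.24 to 0.77 with intervals that include 0 (Cxcl3 falls below 0 when replicate 3 of either LPS group is left out), and no member passed the adjusted test in these 3 treatments.

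Other CXC ligands were looked at as a list of 7 genes, of which 4 passed the filter. With LPS 2 of the 4 were higher in each genotype, Pf4 and Ppbp, both chemokines known from platelets, against 19.9% and 20.2% of all genes. Ppbp passed the filter only through the libraries given LPS alone, so its call was partly set by it. Pf4 was at 3418 and 2207 FPKM in WT LPS libraries and at 196.5, 287 and 167 FPKM with vehicle, and fell by 3.23 with LPS + Dex. Ppbp was at 13.5 and 11.4 FPKM with LPS and at most 0.402 FPKM with WT vehicle, and fell by 3.31 with LPS + Dex. Cxcl14, of which the receptor is not settled, was lower with Dex alone by -2.88 ± 0.26 in WT and -2.86 ± 0.26 in the labelled AMPKa1-/- libraries (SE). Cxcl13, the ligand of CXCR5 that attracts B cells, was chosen after its values were seen. It was at 125.5, 160 and 43.85 FPKM in WT LPS + Dex libraries and at 77.5, 98.0 and 10.7 FPKM in those labelled AMPKa1-/-, and at most 3.76 FPKM in every other library.

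Among the 8 receptors only Cxcr3 and Cxcr4 passed the filter. Cxcr4, the receptor of CXCL12, was at 263, 248 and 224 FPKM in WT vehicle libraries and at 0.486 and 0.9301 FPKM with LPS, and stayed at 1.62, 2.45 and 1.095 FPKM with LPS + Dex. Cxcr3 was at 1.98, 2.54 and 1.42 FPKM with WT vehicle and at 0 and 0.0727 FPKM with LPS. Cxcr2 and Cxcr6, the receptors of the neutrophil attractants and of CXCL16, were below 0.3 FPKM in every library.

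The genes of the pathways that act on the members moved in part with them. Of 19 genes of NF-kB signalling, 15 were higher and 2 lower with LPS in each genotype, where 19.9% and 20.2% of all genes tested were higher and 35.8% and 44.1% lower. With LPS + Dex against LPS 12 were lower in WT and 14 in the libraries labelled AMPKa1-/-, against 17.5% and 18.4% of all genes, with none higher. Nfkbia, the inhibitor of NF-kB, was at 541 and 640 FPKM in WT LPS libraries and still at 335, 377 and 351 FPKM with LPS + Dex. Tnfaip3, another feedback inhibitor, was at 165 and 166 FPKM with LPS and at 165, 109 and 124 FPKM with LPS + Dex, and did not pass the test between them. Nfkbiz, which encodes an atypical IkB protein, went from 10 ± 1.33 FPKM with WT vehicle to 63.05 ± 9.05 FPKM with LPS and 39.0 ± 10.9 FPKM with LPS + Dex (SD), the last step not called in WT (limma adjusted p = 0.0558). Of the NF-kB subunits, Rel rose by 0.86 with LPS and fell by 1.2 with LPS + Dex in WT, and Relb, at 0.23 and -0.41, passed neither test. Of 24 interferon-stimulated genes all were higher with LPS and lower when Dex was added, in both genotypes. With DAMPs 19 were higher in WT and 22 in the libraries labelled AMPKa1-/- (1.22% and 1.89% of all genes). The WT calls of all genes with DAMPs in either direction, 228, ranged from 27 to 374 with a library left out. Cxcl9, Cxcl10 and Cxcl11 were not called with DAMPs, on a scale that understates changes near 0 FPKM. Their means were above vehicle in both genotypes, for Cxcl10 at 2.34 and 2.23 times. Those of Cxcl9 and Cxcl11 rested on few vehicle fragments, and in WT replicate 3 held the most of each. Of the genes of interferon signalling in WT, Stat2 and Irf9, which encode parts of the factor ISGF3, rose with LPS by 2.49 and 1.00. With LPS + Dex against LPS, Stat2 fell by 2.53 and Irf9 fell by 1.504. Socs1, a feedback inhibitor of cytokine signalling, rose by 6.90 and fell by 2.67. Irf1, another interferon-induced factor, fell by 1.43 with LPS + Dex against LPS. Its difference between LPS and vehicle, 0.495 on the log2(FPKM + 1) scale, was not called (limma adjusted p = 0.0559).

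Ifnb1, the gene of interferon beta, was at 1.07 and 0.504 FPKM in WT LPS libraries and at 0, 0.316 and 0.469 FPKM in those labelled AMPKa1-/-, and at or near 0 elsewhere. Of 8 factors that govern the decay of messenger RNA, 2 were higher and 3 lower with LPS in WT, against 19.9% and 35.8% of all genes. Zc3h12a, which encodes the endonuclease Regnase-1, rose by 2.44 ± 0.26 (SE) and fell with LPS + Dex by 0.89, whereas Zfp36, which encodes the decay factor TTP, differed from vehicle by 0.57 with LPS and did not pass. Of 3 genes for the shedding of CXCL16, only 2 are described. Adam10 was at 57.1 and 45.2 FPKM and Adam17 at 166 and 105 FPKM in WT LPS libraries, neither called against vehicle. In the libraries labelled AMPKa1-/- both were lower with LPS (by -0.71 and -0.45), where 44.1% of all genes tested were lower. Of 11 glucocorticoid-induced genes, 10 were higher with Dex in each genotype, against 15.9% of all genes in WT and 11.9% in the libraries labelled AMPKa1-/-, Fkbp5 from at most 2.23 FPKM with WT vehicle to 321, 355 and 346 FPKM. In WT, Tsc22d3, which encodes GILZ, and Dusp1, a phosphatase of MAP kinases, rose with Dex by 3.70 and 3.42, and with LPS + Dex against LPS by 5.91 and 2.68.

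The cells were checked against markers. Macrophage markers were present throughout, with a sum over 10 genes of 16030 to 41530 FPKM a library, led by Lyz2, and none at 0 in any library. With LPS 3 of the 10 were higher and 6 lower in each genotype, against 19.9% and 35.8% of all genes in WT and 20.2% and 44.1% in the libraries labelled AMPKa1-/-. The mean sum was 25090 FPKM with vehicle, 18160 FPKM with LPS and 31360 FPKM with LPS + Dex in WT, and 29540, 22180 and 35440 FPKM in the libraries labelled AMPKa1-/-. Mrc1, which encodes the mannose receptor, went from 175 to 215 FPKM with WT vehicle to 0.587 and 0.960 FPKM with WT LPS and stayed at or below 1.001 FPKM with WT LPS + Dex. Among the libraries labelled AMPKa1-/- it was at 114 to 130 FPKM with vehicle and at or below 0.336 FPKM with LPS or LPS + Dex. Of the dendritic cell list, Ccl22, Ccr7 and Ccl17 rose with LPS and fell when Dex was added, and the sum of the 8 genes went from 0.967 to 1.36 FPKM in WT vehicle libraries to 1473 and 1411 FPKM with LPS, led by Ccl22 at 1132 and 1010 FPKM. Ccl22 and Ccr7 passed the filter only through the libraries given LPS alone. The lineage markers Flt3, Zbtb46, Clec9a and Siglech stayed below 1 FPKM in all 35 libraries, with Siglech at 0 in 32. Xcr1 was below 1 FPKM in 33 libraries and highest in WT LPS replicate 3, at 1.57 FPKM. The neutrophil list of 12 genes summed to 6.58 to 41.9 FPKM in WT vehicle libraries, to 162 and 127 FPKM with WT LPS (most of it Camp) and to 655, 513 and 1201 FPKM with WT LPS + Dex (most of it S100a8). Ly6g was at 0 in 31 libraries, and Elane, Mpo, Prtn3, Retnlg and Cxcr2 were below 1 FPKM in all. Mmp8 was at a median of 16.3 FPKM over all libraries and at most 118 FPKM. S100a9 reached 16.4 FPKM, Ngp 7.56 FPKM and Ltf 6.2 FPKM. In the libraries labelled AMPKa1-/- the mean sum of this list was 48.9 FPKM with vehicle, 142.3 FPKM with LPS and 439.8 FPKM with LPS + Dex. With Dex, where Cxcl16 was called between genotypes, all 6 neutrophil markers tested were higher in the libraries labelled AMPKa1-/- and 2 of 4 fibroblast markers lower, against 11% and 15.5% of all genes. The fibroblast and stromal list of 8 genes summed to 18.8, 1.54 and 10.2 FPKM in WT vehicle libraries, to 18.2 and 18.8 FPKM with WT LPS and to 11.6, 3.30 and 10.6 FPKM with WT LPS + Dex. Its sum in the libraries labelled AMPKa1-/- was 1.77, 3.24 and 1.71 FPKM with vehicle, 9.72, 14.5 and 13.6 FPKM with LPS and 5.19, 8.34 and 3.27 FPKM with LPS + Dex. Of its 4 genes tested 2 were higher with LPS in each genotype (19.9% and 20.2% of all genes) and 1 lower when Dex was added (17.5% and 18.4%), 2 of the 4 (Dcn and Pdgfrb) passed the filter only through the libraries given LPS alone, its most abundant genes reached 11.9 FPKM at most (Col1a2), and Pdgfra and Cxcl12 were below 1 FPKM in all libraries. The part of these lists in the results for the members was not tested. Of the lymphocyte list of 8 genes, Cd4 reached the highest level (0.574 to 34.95 FPKM) and was the only gene tested. The mean sum of the list in WT was 16.75 FPKM with vehicle, 29.3 with DAMPs, 10.8 with Dex, 10.2 with DAMPs + Dex, 2.69 with LPS and 3.04 with LPS + Dex, and in the libraries labelled AMPKa1-/- 10.02, 19.3, 6.95, 6.78, 1.31 and 1.46 FPKM. Like Cxcl16 it was thus above vehicle with DAMPs and below it with Dex or DAMPs + Dex, and unlike Cxcl16 below it with LPS. Cd4 itself was called in neither genotype for DAMPs or for Dex against vehicle, and was lower with DAMPs + Dex against DAMPs and with LPS against vehicle in both. Its part in the results for Cxcl16 was not tested. Cd3e and Cd3g were below 0.13 FPKM in all libraries. Of the mast cell and basophil list, none of 5 genes reached 1 FPKM.

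For each member the genes with the most similar pattern were found by Pearson correlation of log2(FPKM + 1) over the 12 group means, a description. The 2 LPS groups held 71.3% to 83.4% of the sum of squares over group means for 7 members and 43.2% for Cxcl16. Cxcl1 was closest to A430093F15Rik (r = 0.998), and then to Cxcl2 and Cd69 (both r = 0.996). Cxcl2 was closest to Cxcl1, then to Uba1 (r = 0.995) and H2-Ob (r = 0.994). For Cxcl3 the closest were Ccl22, Ccr7 (both r = 0.999) and Lad1 (r = 0.998), and for Cxcl5 Alpk2 (r = 0.999), Lta and Csf2 (both r = 0.998). Cxcl9 had weaker neighbours, Ifi214 (r = 0.978), Olfr56 (r = 0.973) and Gbp5 (r = 0.970). Cxcl10 was closest to Usb1 (r = 0.995), Ighv14-1 (r = 0.9935) and Gbp4 (r = 0.992), and Cxcl11 to Tmem215, Nrg1 (both r = 0.999) and Sod3 (r = 0.998). Cxcl16 was closest to its antisense neighbour Zmynd15 (r = 0.983), then to Ift22 (r = 0.976) and Oas1g (r = 0.969). Within the group, Cxcl16 had the lowest correlations with the other members, 0.722 to 0.816, and the pair of Cxcl1 and Cxcl2 the highest.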

How the data were processed

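RNA from 35 cultures of bone marrow-derived macrophages was sequenced by Illumina protocols. The deposited files give FPKM per gene and library, made by the authors from mapped fragments. The submitters' processing notes name Bowtie2 2.2.3, TopHat2 2.0.12, HTSeq 0.6.1 and DESeq2, and the builds GRCm38 and mm10, with no role stated here. The steps between low values gave totals of 15837203 to 31955298 fragments. With these, a gene length was fitted for each gene, the smallest that made its values whole within 0.02 fragments in all 35 libraries, and one was found for 11287 of the 11354 genes tested (99.4%). With the exon length of the annotation instead, 55.7% to 64.0% of values under 10 fragments were whole. FPKM values were tested as log2(FPKM + 1) with limma 3.58.1 in R 4.3.3, with 1 mean for each of the 12 groups over all 35 libraries, a mean of at least 1 FPKM and empirical Bayes moderation with a trend. Tests were 2-sided, Benjamini-Hochberg adjustment ran over all genes tested, and a gene was called at an adjusted p under 0.05. Differences are given on the log2(FPKM + 1) scale, which understates changes of genes near 0 FPKM. The fit was also run on simulated data, of which no outcome is reported here and from which no conclusion is drawn. The study's methods take cultures of individual mice as its units; the labels do not say which mouse gave which library, so p-values measure the spread between these libraries. Replicate numbers were checked as pairs: all 3 pairs of libraries deviated together (correlations 0.124 to 0.4) in 4 of 16 comparisons within a genotype. These 4 lay among vehicle, Dex, LPS and LPS + Dex in the libraries labelled AMPKa1-/-. Comparisons with WT LPS hold 2 pairs and could not be counted so, and for WT LPS + Dex against LPS both were positive (0.113 and 0.429). Otherwise correlations ranged from -0.494 to 0.504, and the numbers were used as a block only in an alternative fit. The members and gene lists were chosen with earlier results of these data known. Genes were named by a rule set with those results known: the members, Prkaa1 and Prkaa2, a list of ligands, receptors and regulators, and the 3 genes most similar to each member; markers, Zmynd15 and Cxcl13 were named in addition, and 1 gene of that list is not reported here. Alternatives were another pseudocount (0.1), no filter, a minimum of 5 FPKM, median centring, quantile normalization, fits to the compared groups or to 1 genotype, a replicate block, leaving out each library, and limma-voom on the recovered fragments, which was chosen after seeing the data.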

Additional observations from a re-analysis of the deposited data

How the results depend on the processing

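For LPS against vehicle, LPS + Dex against LPS and LPS against DAMPs, all 8 members were called in each genotype under every alternative and with any library left out, except that a minimum of 5 FPKM left 6 members to test, all called. Fits with a single WT LPS library are set aside in this statement. Elsewhere the number of members called moved by over 1.5 times as follows, and the cause was not tested. With a pseudocount of 0.1 it went from 2 to 4 for DAMPs + Dex against DAMPs and from 1 to 3 for DAMPs + Dex against vehicle in WT, and in the libraries labelled AMPKa1-/- from 1 to 3 for Dex, from 3 to 5 for DAMPs + Dex against DAMPs and from 2 to 4 for DAMPs + Dex against vehicle. Without a filter it went to 0 for DAMPs in WT and for the genotypes with Dex, and to 1 for Dex in WT and for DAMPs + Dex against vehicle in the labelled AMPKa1-/- libraries, where limma-voom, chosen after seeing the data, also gave 1. By smaller steps, limma-voom gave 3 in place of 4 for LPS + Dex against vehicle in WT, 4 in place of 3 in the labelled AMPKa1-/- libraries and 2 in place of 3 for DAMPs + Dex against DAMPs there, and fits to the compared groups 3 in place of 2 for Dex in WT. Median centring gave 0 for DAMPs in WT and quantile normalization 1 for Dex in WT. Fits to the compared groups gave 0 for DAMPs in WT, 4 for DAMPs + Dex against vehicle in WT, 2 for Dex in the labelled AMPKa1-/- libraries and 0 for the genotypes with Dex, and the fit to 1 genotype 0 for DAMPs in WT. With a library left out, the count ranged from 0 to 1 for DAMPs in each genotype, from 1 to 2 for Dex in each genotype, from 1 to 3 for DAMPs + Dex against DAMPs in WT, from 2 to 5 for LPS + Dex against vehicle in WT, from 1 to 3 for DAMPs + Dex against vehicle in the labelled AMPKa1-/- libraries, and from 0 to 1 for the genotypes with Dex. No range is given for the genotypes with LPS or for the genotype differences of LPS and of LPS + Dex against LPS. It would include fits with a single WT LPS library, and the calls that moved in other fits are given above. With a replicate block no such count moved by over 1.5 times: it was 8 for LPS against vehicle in each genotype and 3 for DAMPs + Dex against DAMPs in WT, where Cxcl9 was called (-0.98), and no other call of a member changed. Of all genes, fits to the compared groups gave 0 in place of 228 calls for DAMPs in WT, 1931 in place of 3871 for LPS + Dex against LPS in WT, 1825 in place of 2756 for DAMPs + Dex against DAMPs in WT and 274 in place of 469 for DAMPs in the labelled AMPKa1-/- libraries, and between genotypes 13 in place of 49 with vehicle, 4 in place of 87 with LPS, 7 in place of 76 with LPS + Dex, 7 in place of 83 with DAMPs and 32 in place of 120 with DAMPs + Dex. Without a filter the calls were 121 for DAMPs in WT, 1435 in place of 3008 between genotypes with Dex, 303 with LPS and 48 with DAMPs, and 90, 2, 68 and 7 in place of 0 for the genotype differences of LPS, DAMPs, LPS + Dex and DAMPs + Dex. The fit to WT alone gave 94 for DAMPs, a minimum of 5 FPKM 27 between genotypes with vehicle and 54 with DAMPs, and a pseudocount of 0.1 gave 41 with DAMPs. Quantile normalization gave 1 for the genotype difference of LPS and 1 for that of LPS + Dex, and the replicate block 83 between genotypes with vehicle and 5 for the genotype difference of LPS. Leaving out a library moved the calls of all genes between 27 and 374 for DAMPs in WT and 268 and 516 in the labelled AMPKa1-/- libraries. Between genotypes the range was 28 to 58 with vehicle, 305 to 3564 with Dex, 36 to 110 with LPS + Dex, 25 to 89 with DAMPs and 49 to 132 with DAMPs + Dex. It is left out with LPS and for the genotype differences of LPS and of LPS + Dex, where it would include fits with a single WT LPS library. The depth limits Cxcl5 and Cxcl11 outside the libraries given LPS alone, where they had at most 25 fragments a library. It also limits Cxcl3, Cxcl9 and Cxcl10 in groups such as WT Dex, where they had at most 3 fragments a library. Cxcl9 reached 160 fragments with WT DAMPs and 175 with WT LPS + Dex. The 2 WT LPS libraries limit each comparison with that group, and with 1 of them left out only the other groups give the spread.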
